A study of Mus musculus with 13 samples.

Results

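The genes described here are Acan, Vcan, Hapln1, Matn1 and Matn4, which encode aggrecan, versican, the cartilage link protein and 2 matrilins. They were taken by symbol from a deposited table of normalized RPKM (reads scaled by gene length and library size, then normalized by the authors), and all 5 were among its 12880 genes. The table covers limb buds of mouse embryos, 13 RNA-seq libraries in 4 groups, each library from a separate embryo. At embryonic day E11.5 there were 3 controls of genotype Sox9fl/-, which carry 1 null Sox9 allele beside a floxed one, and 4 Sox9-/- mutants, labelled Sox9null. At E12.5 there were 3 Sox9fl/fl controls and 3 Sox9fl/flPrx1CreER mutants, labelled Sox9cKO. The Prx1 promoter drives Cre in limb mesenchyme and CreER acts after tamoxifen, so cells outside that lineage keep Sox9 in Sox9cKO. For the tamoxifen schedule, the deleted exons and the strain, nothing is stated in the labels or the table header. Age and kind of mutant change together, so an effect of age and one of mutant design cannot be told apart wherever the 2 mutants are compared.

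Aggrecan and versican are lecticans, large chondroitin sulfate proteoglycans that bind hyaluronan through their amino-terminal domain. Link protein, the product of Hapln1, holds the bond between lectican and hyaluronan. Matrilins are oligomeric adaptor proteins with von Willebrand factor A domains that join aggrecan, collagen fibrils and other matrix proteins. In the limb, versican is made by loose and condensing mesenchyme, whereas aggrecan and matrilin-1 mark differentiated cartilage. SOX9 is the transcription factor that, with SOX5 and SOX6, directs chondrocyte differentiation.

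Positions are those of the GENCODE annotation on GRCm38, the assembly also called mm10. Acan (ENSMUSG00000030607) lies at chr7:79053483-79115099 on the plus strand, and its 3′ end is 2 bp from that of Hapln3, a second link protein gene on the opposite strand. Hapln1 (ENSMUSG00000021613, chr13:89539796-89611652, plus) and Vcan (ENSMUSG00000021614, chr13:89655312-89742509, minus) are next to each other, 43659 bp apart. Matn1 (ENSMUSG00000040533) lies at chr4:130944385-130955475 on the plus strand. Matn4 (ENSMUSG00000016995) lies at chr2:164389393-164405160 on the minus strand, overlaps Rbpjl on the plus strand, and ends 297 bp before Slpi on its own strand. Vcan also overlaps an antisense gene, Gm4117. No source used here says whether the counting used strand, so reads of overlapping genes cannot be told apart.

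RefSeq promoters (GRCm38.p6) were matched for all 5 genes, with 6 start sites in all, and the 250 bases before each start were searched. Those of Acan, Matn1 and Matn4 are shown because these 3 genes varied together over the 13 libraries (Pearson r 0.858 to 0.988). Matn4 did not follow Acan and Matn1 in every comparison. The window of Hapln1 is shown because that gene did not vary with them. Capitals mark every match to 5 short motifs, read on both strands, so that a match on the opposite strand appears as its reverse complement. ACAAT is one form of the SOX recognition core, and ACAAAG is the other form searched. GGGCGG is the GC box, TATAAA is the TATA box, and CCAAT is the motif of the same name.
Acan, chr7:79052976-79053225, plus: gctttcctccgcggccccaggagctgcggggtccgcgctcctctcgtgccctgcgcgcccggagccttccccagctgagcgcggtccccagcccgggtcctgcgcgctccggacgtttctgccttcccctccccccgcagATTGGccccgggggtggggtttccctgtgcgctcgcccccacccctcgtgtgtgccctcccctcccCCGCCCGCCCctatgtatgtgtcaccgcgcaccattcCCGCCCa
Matn1, chr4:130944135-130944384, plus: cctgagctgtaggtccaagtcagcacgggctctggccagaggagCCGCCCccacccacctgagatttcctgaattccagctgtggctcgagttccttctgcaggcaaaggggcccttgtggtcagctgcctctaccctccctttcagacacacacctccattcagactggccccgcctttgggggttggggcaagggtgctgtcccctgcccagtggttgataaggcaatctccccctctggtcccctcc
Matn4, chr2:164405161-164405410, minus: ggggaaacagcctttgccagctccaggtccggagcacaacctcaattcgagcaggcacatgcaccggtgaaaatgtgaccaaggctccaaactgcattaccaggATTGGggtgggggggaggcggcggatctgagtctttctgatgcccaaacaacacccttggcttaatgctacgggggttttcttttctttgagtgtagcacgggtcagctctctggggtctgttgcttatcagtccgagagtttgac
Hapln1, chr13:89540386-89540635, plus: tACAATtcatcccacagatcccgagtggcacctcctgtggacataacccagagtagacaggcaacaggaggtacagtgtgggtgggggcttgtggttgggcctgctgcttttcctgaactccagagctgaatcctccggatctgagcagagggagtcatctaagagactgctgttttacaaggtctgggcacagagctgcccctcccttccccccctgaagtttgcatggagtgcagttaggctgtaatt
The Acan window held 3 GC boxes, the first pair of which overlap, at 44 to 39, 40 to 35 and 7 to 2 bases before the start, and CCAAT on the opposite strand at 110 to 106. Its GC content was 74.4%, against 62.0% for Matn1, 54.4% for the first Matn4 start and for Hapln1, and a median of 52.4% over 32851 promoters. Matn1 held a single GC box at 206 to 201, and the first Matn4 start a single CCAAT at 146 to 142. The Vcan window held 2 GC boxes and 1 CCAAT. A SOX core was found in the Hapln1 window alone, at 249 to 245, whereas 38.8% of all promoter windows of this length held one of its 2 forms. A GC box was held by 32.7% of all windows, CCAAT by 33.8% and TATAAA, which no window of these genes held, by 12.4%. These matches describe letters in a short window and do not bear on the enhancers of these genes, which were not searched.

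Sox9 itself measured 35.8, 49.3 and 37.1 RPKM in the E11.5 controls and 20.6, 25.7, 25.0 and 22.7 in Sox9null. The fall, a log2 difference of -0.76 ± 0.11 SE, passed limma's test on log2(RPKM + 1) with a p, adjusted for all genes by Benjamini-Hochberg, of 0.0360, though in 10 of 24 alternative analyses only, with adjusted p from 0.0128 to 0.523. Leaving out any single library other than E11.5 control 1 or Sox9cKO 2 lost this call (limma adjusted p 0.0504 to 0.139). At E12.5 it measured 37.5, 35.2 and 35.9 in controls and 35.1, 28.7 and 32.2 in Sox9cKO, a log2 difference of -0.18 ± 0.12 that did not pass. Reads over exons that remain in a mutant allele also count, so this level does not measure recombination. By their deviations from the group means, the E11.5 libraries formed 2 sets that no label explains. Controls 1 and 3 with Sox9null 3 and 4 made a set of 4, and control 2 with Sox9null 1 and 2 a set of 3. All 11 listed limb mesenchyme markers were detected, and their summed level at E12.5 was 476 to 483 in controls and 480 to 508 in Sox9cKO. At E12.5 the sums of 10 erythroid markers did not overlap (601 to 656 in controls, 832 to 1033 in Sox9cKO), nor did those of 3 tendon markers (103 to 108 against 85.7 to 94.1), 2 nerve markers (39.98 to 42.3 against 29.3 to 37.5) or 10 surface ectoderm markers (189 to 199 against 165 to 188). Sums of muscle, macrophage and endothelial markers overlapped at E12.5, and at E11.5 the sums of all these lists overlapped between control and Sox9null. No marker was at 0 throughout. In bulk tissue, fewer cells of a type and less RNA per cell cannot be told apart.

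Acan, the core protein of the cartilage aggregate, was near the bottom of the table in every group except the E12.5 controls. It measured 0.065, 0.502 and 0.180 RPKM in the E11.5 controls and 0.129, 0.129, 0.137 and 0.104 in Sox9null. At E12.5 it measured 8.43, 3.25 and 10.5 in controls and 0.923, 0.091 and 0.225 in Sox9cKO. The E12.5 controls stood above all other libraries, and the values of the other 3 groups overlapped. The lowest E12.5 control was 3.52 times the highest Sox9cKO library, and the ratio of the means was 17.9. The mean of Sox9cKO was the lowest of all 12880 listed genes in that group. This place follows in part from how the table was made, since a gene was listed when at least 1 group reached a mean of 3 RPKM. Acan and Matn1 reached that limit in the E12.5 control group alone, as did 86 of all genes (0.668%), and without that group neither would be listed.

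Vcan was among the more abundant genes, above 86.3% to 95.02% of the listed genes by its group means. It measured 32.1, 58.9 and 39.9 RPKM in the E11.5 controls and 43.5, 37.5, 24.5 and 28.9 in Sox9null. At E12.5 it measured 43.3, 44.8 and 48.0 in controls and 38.8, 32.7 and 37.3 in Sox9cKO. All 3 Sox9cKO libraries lay below all 3 controls, by a ratio of means of 1.25, while at E11.5 the groups overlapped. The E11.5 values moved with the library sets. In the set of 4 the means were 36.0 in controls and 26.7 in Sox9null, in the set of 3 they were 58.9 (a single control) and 40.5, and in both sets each Sox9null library was below each control of its set. The order of the group means was E12.5 control, E11.5 control, Sox9cKO and Sox9null, and the first and the last neighbouring pair did not differ past the test, except with the library set as a term. E11.5 controls and Sox9cKO were not compared.

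Since both proteins are built on the same plan and RPKM is scaled by gene length, the share of Acan in the sum of Acan and Vcan RPKM was followed in each library. It was 0.202%, 0.845% and 0.449% in the E11.5 controls and 0.296%, 0.342%, 0.557% and 0.358% in Sox9null. At E12.5 it was 16.3%, 6.76% and 17.9% in controls and 2.33%, 0.277% and 0.599% in Sox9cKO. Versican RNA thus exceeded aggrecan RNA in every library, and the share was above 3% in none but the E12.5 controls. The means at E12.5 were 13.7% ± 6.04 (SD, n = 3) and 1.07% ± 1.101 (SD, n = 3). Groups of 3 cannot reach a p below 0.1 in an exact two-sided permutation test, and both the E12.5 comparison and the comparison of the controls over age gave that p of 0.1 (0.2 after adjustment over the 4 comparisons made). Sox9null against control gave an exact permutation p of 0.657, and Sox9cKO against Sox9null 0.2 (adjusted 0.267). Acan was listed through the E12.5 controls alone. Its higher share in that group is therefore partly fixed by the listing, and nothing is read from it.

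**Figure D1:**
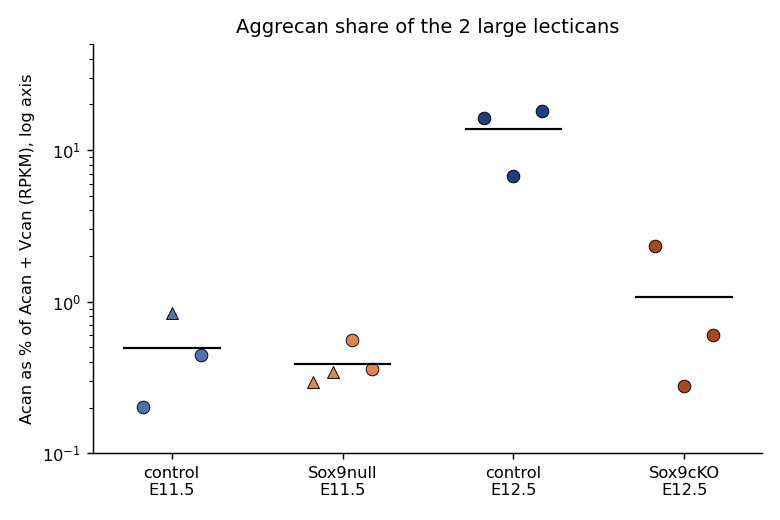
Acan RPKM as a percentage of Acan plus Vcan RPKM in each of the 13 libraries, on a log axis, by group. Points are libraries (triangles mark the E11.5 set of 3) and bars are group means. The 3 E12.5 controls, the only group through which Acan was listed, lie between 6.76% and 17.9%, above every other library.

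Hapln1 held a middle level in all 4 groups. It measured 15.5, 13.3 and 11.9 RPKM in the E11.5 controls and 20.6, 14.9, 14.5 and 15.8 in Sox9null. At E12.5 it measured 12.9, 11.1 and 15.6 in controls and 11.504, 10.4 and 13.0 in Sox9cKO. Control and mutant values overlapped at both ages, and every Sox9null library lay above every Sox9cKO library. The 95% intervals of the mutant effects ran from -0.04 to 0.55 at E11.5 and from -0.48 to 0.16 at E12.5 on the log2 scale. An interval of that width leaves room for a change of modest size in either mutant.

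Matn1, once named cartilage matrix protein, followed the pattern of Acan. It measured 0.304, 0.414 and 0.725 RPKM in the E11.5 controls, was listed at 0 in Sox9null 1 and 2, and measured 0.126 and 0.064 in Sox9null 3 and 4. At E12.5 it measured 13.5, 5.07 and 23.1 in controls and 0.963, 0.042 and 0.599 in Sox9cKO. Mutants lay below controls at both ages without overlap, and the lowest E12.5 control was 5.26 times the highest Sox9cKO library. All 7 E11.5 values were under 1 RPKM, and since the depth is unknown the number of reads behind them is too. Its group means at E12.5, 13.9 ± 9.02 and 0.535 ± 0.464 (SD, n = 3 each), differed by a ratio of 25.98.

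Matn4, a matrilin made in cartilage and in several other tissues, was the only 1 of the 5 with a level above 1 RPKM in the E11.5 controls and below it in all Sox9null libraries. It measured 1.77, 5.01 and 5.29 RPKM in those controls and 0.158, 0.603, 0.178 and 0.111 in Sox9null. At E12.5 it measured 24.1, 15.99 and 24.02 in controls and 8.97, 1.87 and 2.86 in Sox9cKO. Mutants lay below controls without overlap at both ages, and within both E11.5 library sets. The ratio of means was 15.3 at E11.5, where all Sox9null values were under 1 RPKM at unknown depth, and 4.68 at E12.5. On the scale of log2(RPKM + 1) the differences were -1.92 and -2.20. The difference between these 2 effects did not pass, so the ratios do not rank the ages. Sox9cKO 1 stood apart from the other 2 of its group and exceeded all E11.5 controls. Slpi, the protease inhibitor gene downstream of Matn4, measured 4.39, 4.22 and 4.31 in E12.5 controls and 1.69, 0.709 and 0.763 in Sox9cKO, a log2 difference of -1.40 that passed the test (limma adjusted p 0.00726). That call was lost in 6 of 23 alternatives, among them those without E12.5 control 1 (limma adjusted p 0.0572) or 3 (0.0538), without Sox9cKO 3 (0.0510) and with the replicate block (0.0574). At E11.5 it was under 1 RPKM in all 7 libraries and did not pass. Slpi, like Acan and Matn1, reached the listing limit of 3 RPKM in the E12.5 control group alone. Its fall is therefore partly fixed by the listing, and nothing is read from that call. Whether reads that run past the end of Matn4 were counted for Slpi was not tested. Hapln3, the neighbour of Acan, measured 4.47, 5.37 and 4.63 in E12.5 controls and 4.49, 4.34 and 6.40 in Sox9cKO, with overlap.

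**Figure D2:**
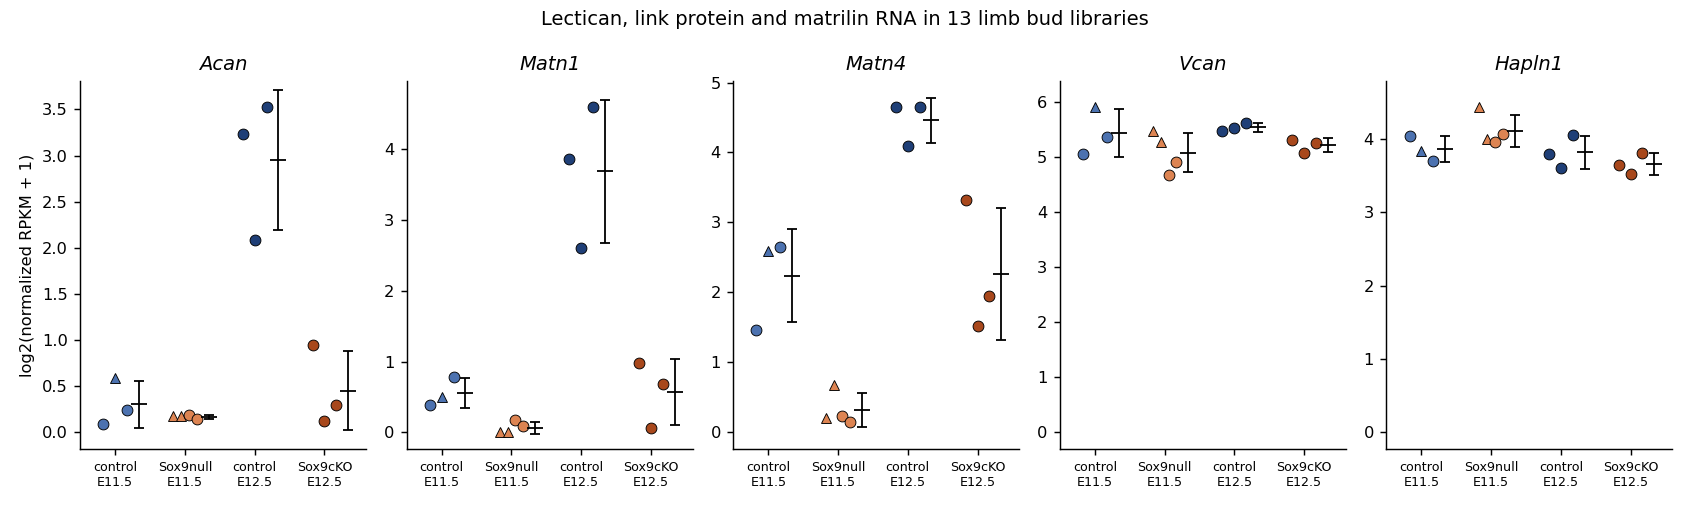
log2(RPKM + 1) of Acan, Matn1, Matn4, Vcan and Hapln1 in each library, by group. Points are libraries (triangles mark the E11.5 set of 3), with the mean and SD of each group beside them. Acan and Matn1 are high in the 3 E12.5 controls alone, and Matn4 is lowest in Sox9null. Over all libraries Vcan runs from 24.5 to 58.9 RPKM and Hapln1 from 10.4 to 20.6.

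The comparison at E11.5 asks what the loss of Sox9 from the start changes before overt cartilage is present. None of the 5 genes passed limma's test there, against 0.0543% of all 12880 genes. Matn4 differed most, by -1.92 ± 0.39 SE on the log2 scale (limma adjusted p 0.232, and from 0.0551 to 1 over 24 alternatives, none of which called it). Matn1 and Matn4 did not overlap between groups, as was the case in the same direction for 1.06% of all genes. The other differences were -0.14 ± 0.30 for Acan, -0.49 ± 0.37 for Matn1, -0.36 ± 0.20 for Vcan and 0.25 ± 0.14 for Hapln1. The median over the 5 genes was -0.36, against 0.01 over all genes. On this scale the differences of Acan and Matn1 are held small by the added 1 RPKM.

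At E12.5 Matn1 and Acan fell in Sox9cKO, 2 of the 5 genes against 0.14% of all genes. Since both are in the table through the E12.5 controls alone, that count is a description from which nothing is read. Matn1 fell by 3.11 on the log2 scale (SE 0.39, limma adjusted p 0.00687) and Acan fell by 2.50 (SE 0.32, limma adjusted p 0.00726). Matn4 differed by -2.20 ± 0.42 and did not pass (limma adjusted p 0.0756, from 0.00488 to 0.411 over alternatives), Vcan differed by -0.32 ± 0.22 and Hapln1 by -0.16 ± 0.15. Matn1, Acan, Matn4 and Vcan did not overlap between groups, as did not, in that direction, 8.5% of all genes. The median over the 5 genes was -2.20, against 0.01 over all genes. Acan and Matn1 enter both the count without overlap and this median. Both are therefore partly fixed by the listing, and nothing is read from them. Both calls were lost when the fit used the 6 E12.5 libraries alone (limma adjusted p 0.0962 for Matn1 and 0.0907 for Acan) and without E12.5 control 1 (0.0515 and 0.0584), and that of Acan without Sox9cKO 3 (0.0534). Matn4 was called without Sox9cKO 1 (limma adjusted p 0.00488), without E11.5 control 1 (0.0397), with quantile normalization (0.0372) and with a term for the library set (0.0488). The part of the erythroid, tendon, nerve and ectoderm marker sums that moved with these groups was not tested.

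The libraries of E12.5 were not alike in these genes. E12.5 control 2 was the lowest control and Sox9cKO 1 the highest mutant for Acan, Matn1 and Matn4. The same pair of extremes was seen for all 7 cartilage collagen genes and for 14.9% of all genes. Sox9 was also lowest among controls in control 2 (35.2) and highest among mutants in Sox9cKO 1 (35.1). Within controls Acan spanned 3.25 to 10.5 RPKM, with a coefficient of variation of 50.5%, and Vcan 43.3 to 48.0 with 5.31%. Embryos of 1 age can differ in developmental progress, and no label records a finer stage.

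**Figure D3:**
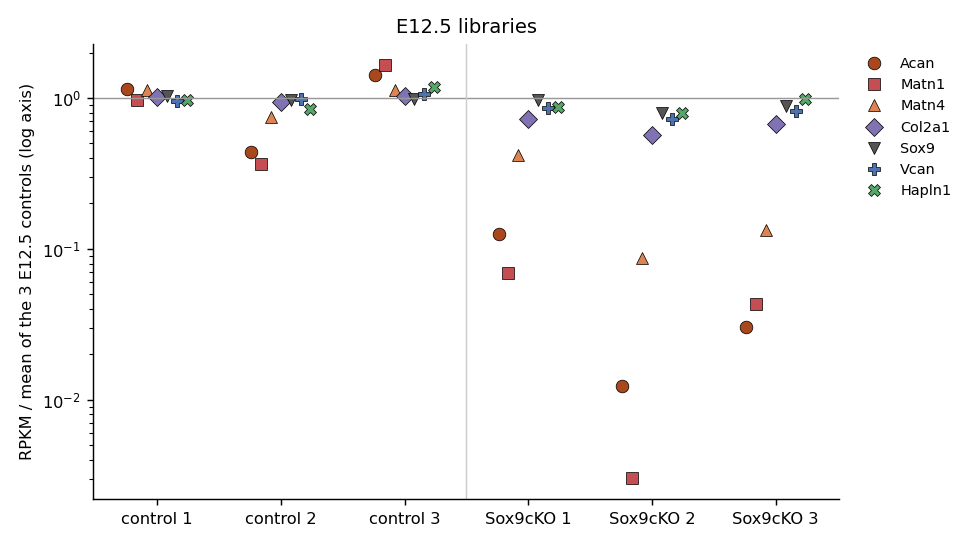
RPKM of each gene in the 6 E12.5 libraries divided by the mean of the 3 controls, on a log axis. Acan, Matn1 and Matn4 are lowest among controls in control 2 and highest among mutants in Sox9cKO 1, while Vcan, Hapln1 and Sox9 stay close to 1.

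The difference between the 2 mutant effects was tested as an interaction. It passed for none of the 5 genes, against 0.0311% of all genes. The effect at E12.5 minus that at E11.5 was -2.36 ± 0.44 for Acan (95% interval of the difference -3.33 to -1.39, limma adjusted p 0.311) and -2.62 ± 0.54 for Matn1 (interval -3.80 to -1.45, limma adjusted p 0.587). Without E12.5 control 2 both passed (limma adjusted p 0.0114 for each, the lowest of their alternatives, which reached 1). Because Acan and Matn1 were listed through the E12.5 controls alone, a stronger effect at E12.5 is partly fixed by the listing. Nothing is read from these differences or calls. For Matn4 the difference was -0.28 ± 0.58, with an interval from -1.54 to 0.98. For Vcan and Hapln1 the intervals were -0.61 to 0.69 and -0.85 to 0.03.

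**Figure D4:**
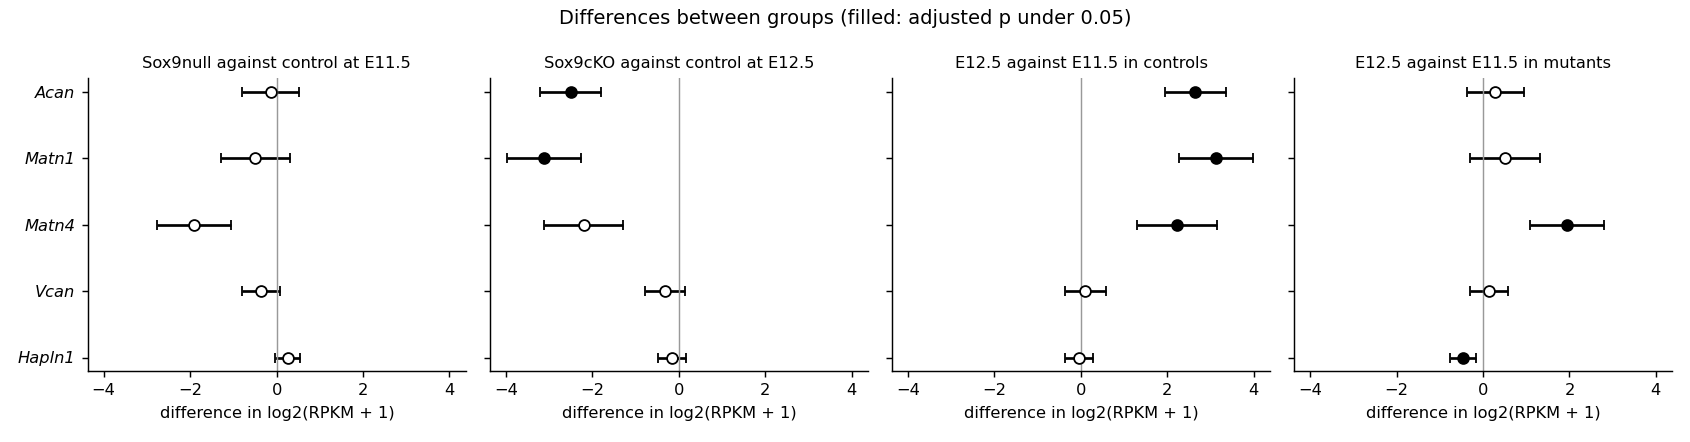
Differences in log2(RPKM + 1) with 95% intervals for the 5 genes in 4 comparisons. Filled points passed limma's test at an adjusted p under 0.05. Acan and Matn1 are filled for Sox9cKO against control and for controls over age, Matn4 for both comparisons over age, and Hapln1 for mutants over age.

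Between E11.5 and E12.5, 3 of the 5 genes rose in controls. Matn1 rose by 3.13 ± 0.39 (limma adjusted p 0.000664), Acan by 2.64 ± 0.32 (0.000603) and Matn4 by 2.22 ± 0.42 (0.00400), all called in every alternative that could test them. Of all genes 16.5% rose. The groups did not overlap for these 3, as for 32.6% of all genes. Because Acan and Matn1 were listed through the E12.5 controls alone, a rise into that group is partly fixed by the listing and nothing is read from the count. Vcan (0.10 ± 0.22) and Hapln1 (-0.04 ± 0.15) did not pass. With the library set as a term, Vcan passed as well (0.31, limma adjusted p 0.0286). The controls of the 2 ages differ in genotype, Sox9fl/- against Sox9fl/fl, and in any batch of the 2 ages, so age cannot be told apart from these.

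From Sox9null at E11.5 to Sox9cKO at E12.5, Matn4 rose by 1.94 ± 0.39 (limma adjusted p 0.00845) and Hapln1 fell by 0.46 ± 0.14 (limma adjusted p 0.0374), 2 of 5 genes against 19.7% of all genes. These 2 did not overlap between the groups, as was so for 33.5% of all genes. Matn4 was called in all 24 alternatives. Hapln1 was called in 17, with adjusted p from 0.0125 to 0.1499. Its call was lost with only the 2 groups compared (limma adjusted p 0.0659), without Sox9null 1 (0.0750) or 2 (0.0504), without Sox9cKO 1 (0.106) or 2 (0.1499), and without E12.5 control 1 (0.0538). Acan (0.28 ± 0.30) and Matn1 (0.50 ± 0.37) did not pass, nor did Vcan (0.14 ± 0.20). With the library set as a term, Vcan passed (0.45, limma adjusted p 0.00548) and Hapln1 did not (-0.40, 0.0599). In these mutants Sox9 rose by 0.43 ± 0.11 (limma adjusted p 0.0214), a call lost without Sox9cKO 1 (0.0922) or 3 (0.0587).

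Across all 4 groups, the authors' deposited table gives p-values adjusted for false discovery of 0.00154 for Matn1, 0.00183 for Acan, 0.00387 for Matn4, 0.181 for Hapln1 and 0.418 for Vcan. The same 3 genes are below 0.05 there. Those p-values come from the same libraries, so they are not separate support. For Acan and Matn1, listed through the E12.5 controls alone, a difference across the groups is partly fixed by the listing.

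The wider families gave further members. Of the other lecticans and link proteins only Hapln3 was listed, and Bcan, Ncan, Hapln2 and Hapln4 were not. Hapln3 means ran from 4.33 to 5.08 RPKM over the 4 groups, with no call in either mutant comparison. Matn3, a cartilage matrilin, measured 5.53 ± 1.02 RPKM (SD, n = 3) in E12.5 controls and 3.79 ± 0.708 (SD, n = 3) in Sox9cKO with overlap, and the log2 difference of -0.45 ± 0.17 did not pass (limma adjusted p 0.696). At E11.5 its means were 3.797 and 3.76. Matn2, a matrilin of many connective tissues, measured 3.88 ± 0.706 and 3.02 ± 0.211 at E12.5, likewise overlapping. The 4 matrilins were all below 0 at E12.5, with 1 call (Matn1), against 0.14% of all genes that fell. Their median was -1.32, against 0.01 over all genes, while Matn2 (-0.27) and Matn3 (-0.45) did not pass. Matn1 was listed through the E12.5 controls alone, so nothing is read from this count or median.

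The partners of these proteins in the matrix were counted by list. Of 7 cartilage collagens, which matrilins and aggrecan accompany in the matrix, 2 fell in Sox9null, none rose and the median was -0.83. Col9a3 measured 13.6 ± 4.46 RPKM (SD, n = 3) in controls and 2.33 ± 0.345 (SD, n = 4) in Sox9null, which is -2.09 on the log2 scale (limma adjusted p 0.00653), and Col9a2 measured 22.3 ± 6.41 and 6.66 ± 1.70, which is -1.58 (0.0184). The Col9a3 call was lost with only the 2 groups compared (limma adjusted p 0.115). The Col9a2 call was lost there too (0.372), without E11.5 control 2 (0.0662) or 3 (0.164), and without Sox9null 1 (0.0711), 3 (0.0537) or 4 (0.0729). In Sox9cKO 1 of the 7 fell, with a median of -0.61. That gene was Col11a2, at 21.8 ± 3.86 RPKM in controls and 4.56 ± 2.07 in Sox9cKO (SD, n = 3 in both), a difference of -2.09 (limma adjusted p 0.00844). Its call was lost with only the 2 groups compared (limma adjusted p 0.0674), without E12.5 control 1 (0.0610) or 3 (0.0646) and without Sox9cKO 3 (0.0572). All 7 were below 0 in both mutants. The share of all genes that fell was 0.0543% at E11.5 and 0.14% at E12.5.

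The chondroitin sulfate chains of both lecticans need a set of transferases and sulfate donors, of which 26 were listed. None passed in Sox9null (median -0.02). In Sox9cKO 1 fell, 25 did not pass and the median was -0.06. Chst11, the main chondroitin 4-O-sulfotransferase, measured 16.2 ± 1.31 RPKM in controls and 10.9 ± 0.560 in Sox9cKO (SD, n = 3 in both), and the fall was -0.53 on the log2 scale (limma adjusted p 0.0240). That call held in 18 of 24 alternatives. It was lost without E12.5 control 1 (limma adjusted p 0.196) or 3 (0.173), without Sox9cKO 2 (0.141) or 3 (0.135), with trimmed-mean scaling (0.0688) and with the replicate block (0.122). Papss2, which makes the sulfate donor, had means of 31.3 and 6.74 RPKM at E12.5 and did not pass (limma adjusted p 0.0747). It was named after its values were seen. In controls 12 of the 26 rose from E11.5 to E12.5 and none fell (16.5% of all genes rose), and in mutants 11 rose (14.5% of all genes).

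Of 11 genes of hyaluronan synthesis, turnover and binding, none passed in either mutant, with medians of -0.01 at E11.5 and -0.04 at E12.5. Its most abundant members were the hyaluronidases Hyal2, at 47.5 ± 2.26 RPKM in E12.5 controls and 46.1 ± 0.998 in Sox9cKO (SD, n = 3 each), and Tmem2, at 41.8 ± 1.58 and 40.5 ± 1.25. Of 11 proteases and inhibitors that act on aggrecan and versican none passed in either mutant (medians 0.04 and -0.02). Mmp2 there measured 55.01 ± 1.43 and 56.3 ± 1.35 at E12.5, and Mmp14 53.2 ± 1.25 and 52.3 ± 2.26. None of 10 further matrix partners, among them Fn1 and Fbn2, passed (medians -0.07 and -0.12), and none of 13 heparan sulfate and part-time proteoglycans, among them Gpc3 and Gpc1, passed (medians 0.04 and -0.02). Of 7 small leucine-rich proteoglycans 1 fell in Sox9cKO, Chadl, at 4.90 ± 0.504 RPKM in controls and 2.75 ± 0.349 in Sox9cKO (SD, n = 3 in both), or -0.66 on the log2 scale (limma adjusted p 0.0294, median of the list -0.41). Chadl reached the listing limit of 3 RPKM in the E12.5 control group alone, so its fall and its rise with age in controls are partly fixed by the listing. The Chadl call held in 13 of 23 alternatives. It was lost without E12.5 control 1 (limma adjusted p 0.196) or 3 (0.2001), without Sox9cKO 2 (0.157) or 3 (0.138), without Sox9null 2 (0.0576), 3 (0.0626) or 4 (0.0534), with only the 2 groups compared (0.0873), with the replicate block (0.127) and with the Y-linked term (0.0525), which was added after seeing the data. In controls 6 of those 7 rose with age, against 16.5% of all genes, and in mutants 4, against 14.5%. The 6 include Chadl, so the count in controls is partly fixed by the listing and nothing is read from it. Of Sox5, Sox6, Sox8, Sox9 and Sox10, Sox9 alone passed in Sox9null (median -0.76) and none in Sox9cKO (median -0.73).

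**Figure D5:**
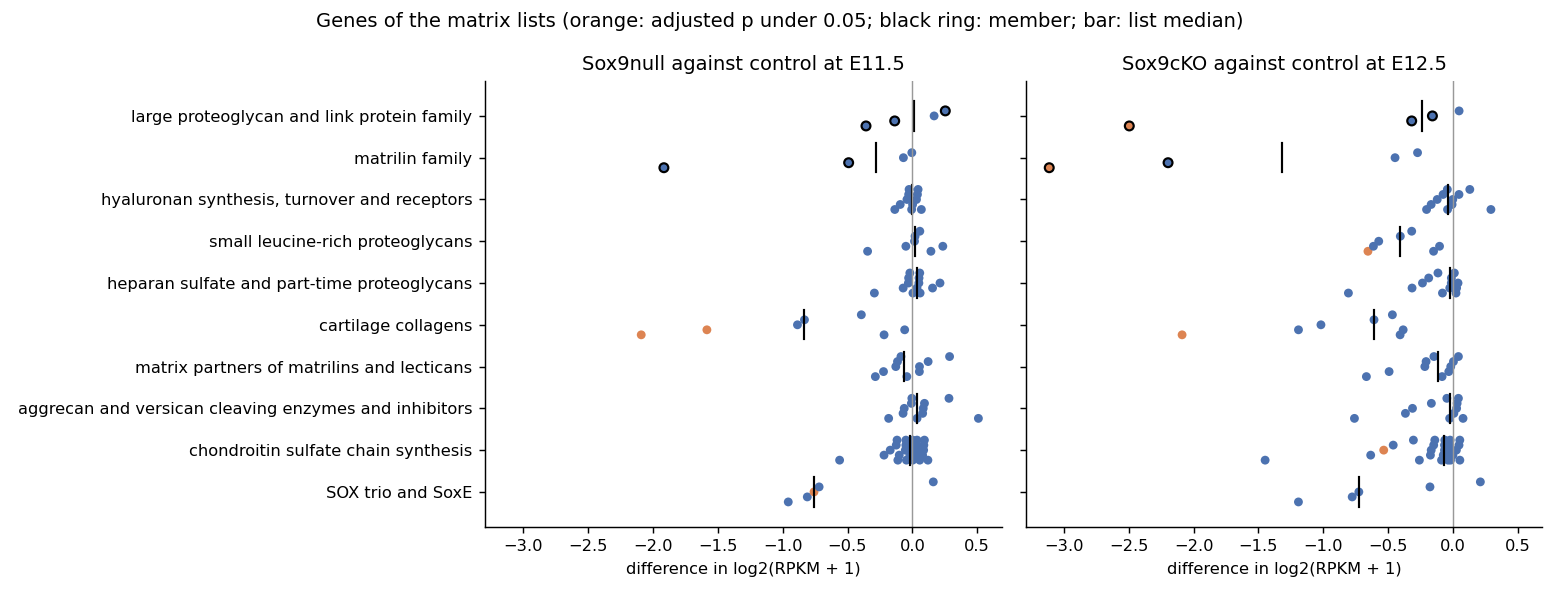
Differences in log2(RPKM + 1) for every listed gene of 10 lists in Sox9null (left) and Sox9cKO (right) against their controls. Each point is a gene, orange where limma's adjusted p is under 0.05, ringed in black for the 5 genes described here, and bars are list medians. Acan and Matn1 lie farthest left at E12.5, while the lists of hyaluronan genes and cleaving enzymes centre on 0.

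Over the 13 libraries, log2 levels of Acan and Matn1 had a Pearson r of 0.988. Acan with Matn4 had 0.858, Matn1 with Matn4 0.876, Acan with Vcan 0.487 and Acan with Hapln1 -0.12. The points share 4 groups, so such an r mostly describes group differences and carries no test. Of 11466 other genes that averaged 1 RPKM or more, the 5 most like Acan were Extl1 (0.982), Chadl, Susd5, Hhip and Mia1, and the 5 most like Matn1 were these same genes, with Chadl first (0.981). Extl1 means were 1.31, 1.25, 6.98 and 1.74 RPKM in E11.5 controls, Sox9null, E12.5 controls and Sox9cKO. Like Acan and Matn1, Extl1, Chadl, Susd5, Hhip and Mia1 reached the listing limit of 3 RPKM in the E12.5 control group alone. The likeness among these genes is therefore partly fixed by the listing. Most like Matn4 were Sox6 (0.980), Fzd9, Sfrp2, Wwp2 and Col9a2. Sox6 means, in the same order, were 8.84, 3.87, 20.2 and 8.45 RPKM, lowest in Sox9null as for Matn4. Among the genes most like Vcan were Trps1, Ankrd44, Srgap3 and Tiam1.

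The genes most like Hapln1 were less close to it, and none was among those of the other 4. They were a long non-coding RNA gene that the table names mmu-mir-205 (0.841), Cdadc1, Cox16, Cdh1 (0.831) and Ppl (0.818). Cdh1 and Ppl encode the epithelial proteins E-cadherin and periplakin. Cdh1 means were 11.9, 13.7, 10.9 and 9.55 RPKM in E11.5 controls, Sox9null, E12.5 controls and Sox9cKO, highest in Sox9null and lowest in Sox9cKO as for Hapln1. The summed level of the 10 surface ectoderm markers was 147 to 175, 156 to 209, 189 to 199 and 165 to 188 in the same groups. The median sums were 160, 178, 193 and 177, highest in E12.5 controls and lowest in E11.5 controls, unlike Hapln1. The part of these markers in the Hapln1 values was not tested.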

How the data were processed

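Total RNA of limb buds was sequenced in 13 libraries. Per the labels, the RNA came from a column kit and libraries from a standard Illumina protocol. CASAVA 1.8 and mm10 are named in the submitters' processing notes. The values are the authors' normalized RPKM per gene and library, per the file headers, with genes listed where the mean of 1 or more of the 4 groups reached 3; 12880 are listed. The labels and headers say nothing of aligner, counting, strand use or normalization between samples. The deposited p-value per gene is the authors' own, over the 4 groups. Identifiers matched GENCODE M21 for 12715 genes.

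Library depth is unknown. Low values multiplied by gene length were searched for steps of 1 read. The best step in a library put 47.2% to 64.0% of its 30 to 72 such genes within 0.15 of a whole number. By chance a single step would place 30% there, and the best of many steps can exceed that. No reads were recovered.

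Values were fitted as log2(RPKM + 1), a scale that understates changes of low genes, with limma 3.58.1 in R 4.3.3 (trended, robust prior variance, 4 group means, all libraries). Two-sided p-values were corrected over all genes of a comparison (Benjamini-Hochberg), and a gene was called under 0.05. The fit was tested on simulated data. The Acan share was tested by exact permutation with scipy 1.17.1. The labels give the samples of a group as biological replicates, and p-values measure only the spread between them. No filter on low values was applied beyond the table's own.

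Genes named were the 5 members and Sox9; list genes called in either mutant comparison, or the 2 most abundant where none was; other lectican, link protein and matrilin genes; neighbours; and the 5 genes most correlated with each member, of which 1 is not reported here. Papss2 was named outside this rule. The members, lists and tests were chosen with earlier results of these data known. The 24 alternatives comprised 10 settings, 13 single libraries left out, and a term for Y-linked level that was added after seeing the data. Promoter sequences are from RefSeq.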

Additional observations from a re-analysis of the deposited data

Results flagged for a closer look

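Among the 4 Sox9null libraries, Matn4 was higher in Sox9null 2 (0.603 RPKM) than in the others (0.158, 0.178 and 0.111). The gap to the nearest library made up 0.864 of the range of the group, past the limit for a single outlying value in 4 samples. About 1 in 20 groups is picked out this way by chance, and 7 groups of values were examined. All 4 values were below the lowest E11.5 control, 1.77 RPKM. No other result was picked out.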

How the results depend on the processing

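Of the values for single genes under the alternatives, 553 kept their direction and side of the threshold, 12 lost a call, 8 gained one and 17 changed sign, none of them called. The number of members called in Sox9cKO, 2, became 1 when 5 RPKM was required in 3 libraries (Acan is then not tested), 0 with only the 2 groups compared, 3 with quantile normalization or the library set as a term, and 0 to 3 when single libraries were left out. In the difference of effects it was 0, and 0 to 2 with single libraries left out. For mutants over age it was 2, became 1 with only the 2 groups compared and was 1 to 2 with libraries left out. In Sox9null it was 0 under every alternative. For controls over age it was 3, except 2 when 5 RPKM was required in 3 libraries and 4 with the library set at E11.5 as a term. The difference of the Acan share in Sox9null, -0.11 percentage points, became 0.50 with 1 RPKM added to both values and ran from -0.259 to 0.0630 with libraries left out. Quantile normalization turned Acan (-0.39) and Matn1 (-0.21) for mutants over age and Vcan (-0.0585) for the difference of effects. For that difference Vcan was -0.17 with the Y-linked term and Matn4 1.04 and 0.15 with pseudocounts of 0.1 and 0.5. With single libraries left out, Vcan ran from -0.19 to 0.23 and Matn4 from -0.81 to 0.10 there, Acan from -0.24 to 0.0047 in Sox9null, and, for controls over age, Vcan from -0.10 to 0.33 and Hapln1 from -0.16 to 0.0626. The cause of these changes was not tested.

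Same-numbered samples correlated in their deviations by -0.435, 0.635 and 0.441 at E11.5 and 0.169, 0.027 and -0.117 at E12.5, so the numbers do not pair the samples. With the replicate block, the number of members called was 0, 2, 0, 3 and 2 in the 5 comparisons, as without it, the Acan share difference was -0.10 in Sox9null (exact permutation p 1) and -12.6 in Sox9cKO (exact permutation p 0.25), and Vcan was -0.0191 for the difference of effects.

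The unknown depth limits most the values under 1 RPKM. These include all those of Acan and Matn1 outside the E12.5 controls, and those of Matn4 in Sox9null.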
